A study of Mus musculus with 6 samples.

Results

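The second phase of the lipopolysaccharide (LPS) response was examined in wild-type macrophages, as the difference between the array taken after 4 h of LPS and the array taken after 2 h. These 2 arrays belong to a set of 6 from mice of the mixed strain C57BL/6 x 129Sv: thioglycollate-elicited peritoneal macrophages of wild-type mice and of LysM-Cre+;Akirin2fl/fl mice (Akirin2 KO below), each at 0, 2 and 4 h of LPS at 100 ng/ml, with 1 array per condition. LPS is the endotoxin of Gram-negative bacteria, and thioglycollate is an irritant that draws monocyte-derived macrophages into the peritoneal cavity. In the KO mice, Cre recombinase driven by the lysozyme M locus acts in myeloid cells. AKIRIN2 is a small nuclear protein that links NF-kB-dependent transcription to chromatin remodelling. The number of mice behind each sample is not in the labels, nor is whether the 3 samples of 1 genotype came from the same animals.

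Each gene was represented by the probe set with a single gene symbol and the highest mean over the 6 arrays, and was kept if at least 1 array reached its own median over all probe sets. Of 18194 genes, 13587 were kept. A gene was counted as higher or lower at 4 h when its log2 value differed by 1 or more, which is 2-fold, between the wild-type arrays. With 1 array a side this difference has no error and no p-value. The error given beside it is the standard error (SE) from limma fitted to all 6 arrays with time and genotype as terms. Its error comes from how far the genotypes depart from parallel courses over 0, 2 and 4 h, not from the spread between mice, so a gene can miss the threshold through its 0 h values. The fit shares its wild-type arrays with the difference itself. The words rose and fell are kept below for genes that passed limma's threshold, an adjusted p (Benjamini-Hochberg over 13587 genes) under 0.05. Array values can be compared between times for 1 probe set, but not between probe sets.

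Background on this phase of the response is as follows. LPS is sensed by the Toll-like receptor TLR4, whose MyD88 branch activates NF-kB and MAP kinases within minutes and drives an immediate wave of cytokine, chemokine and feedback genes. Its TRIF branch activates IRF3, and the interferon-beta made in consequence acts back on the macrophages through its receptor, after which transcription factors bind the interferon-stimulated response element of a large set of antiviral genes. Genes that need this loop or other newly made proteins come later, while many early transcripts carry AU-rich elements and are removed by proteins such as tristetraprolin.

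The arrays fitted the labels on the points that could be checked. Akirin2 had log2 values of 7.43, 7.47 and 7.33 at 0, 2 and 4 h in wild-type cells, against 5.18, 5.54 and 4.91 in Akirin2 KO cells. Csf1r, the receptor for the macrophage growth factor, was at 12.60 at 4 h and 12.61 at 2 h, and the macrophage antigen Cd68 was at 10.60 and 10.83. Of 17 macrophage markers 16 were measured, and their summed linear signal was 37636 at 4 h, against 40055 at 2 h, with 13 of the 16 lower at 4 h. The summed signal was 935 against 872 for 12 of 13 mesothelial and fibroblast markers, 656 against 497 for 5 of 12 neutrophil markers, 571 against 353 for 2 of 7 dendritic cell markers (Itgax and Zbtb46), and under 100 at both times for the B cell, T and NK cell, mast cell and eosinophil lists. Single genes moved apart within these lists: S100a8 differed by 0.61, S100a9 by -0.47 and Mmp8 by -0.28 among the neutrophil markers, and Itgax by 0.73 but Zbtb46 by 0.01 among the dendritic cell markers. None of the 5 erythroid markers passed the floor, and no marker of any of the 9 lists differed 2-fold. The 3′ minus 5′ control values for Actb were 4.09 at 4 h and 4.16 at 2 h, and those for Gapdh were 4.42 and 4.33. The part that other cells or RNA quality play in the differences below was not tested, and in bulk RNA fewer cells of a type cannot be told apart from less RNA per cell.

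Fewer genes were 2-fold apart in the step from 2 h to 4 h than in the step before it, and more of them were up than down. In wild-type cells 183 genes (1.35%) were at least 2-fold higher at 4 h than at 2 h, and 146 (1.07%) were at least 2-fold lower, 329 genes (2.42%) in all. Between 0 and 2 h the counts had been 307 higher (2.26%) and 297 lower (2.19%). The late differences ran from -2.65 for the palmitoyltransferase family member Zdhhc14 to 3.72 for the antiviral gene Ifit2, on the log2 scale. At 3-fold 60 genes were higher and 16 lower, and at 8-fold 4 were higher and none was lower. At 1.5-fold the order was reversed, with 602 higher and 658 lower. The values of the remaining genes lay close together: 12327 of 13587 differed by less than 1.5-fold, the median difference was -0.00 and its SD across genes was 0.39, against 0.51 for the first step. Genes next to the threshold were Ralgapa2 (1.002), Lhx9 (1.004) and Ch25h (1.009) on the inside and Mitd1 (0.998), Sp100 (0.997) and Dst (0.993) on the outside. On the lower side Thbs1 (-1.001), Icam2 (-1.002) and Lpin2 (-1.011) were inside, and Kazald1 (-0.999) and Mtmr10 (-0.991) were outside.

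In the fit over wild-type and KO arrays together, 212 genes (1.56%) passed limma's threshold with higher values at 4 h and 151 (1.11%) with lower values. Of the 183 genes that were 2-fold higher in wild-type cells 143 were among its calls, and of the 146 that were 2-fold lower 93 were. The other 40 and 53 did not pass, some of them with KO differences of like size, such as Slc16a13 with 1.06 in both genotypes. With each array centred on its median limma called 123 higher, and with the mean of a gene's probe sets 111 genes were 2-fold higher and 69 lower in wild-type cells. Of the 183 higher genes 101 had more than 1 probe set above the floor, and in 83 of them every other probe set pointed the same way. Of the 146 lower genes 84 had several, and in 55 of them all agreed in direction. Differing probe sets are given below for some genes only. Those not marked there include Fdft1, with a probe set at 0.02, Ccnd2 (0.03) and Lhx9 (0.09).

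Set against the first step, the late differences fell into 7 classes. Of the genes higher at 4 h, 143 had differed by less than 2-fold between 0 and 2 h (late rise), 38 had already been 2-fold higher at 2 h (continued rise), and 2, Zfp710 and Slc16a13, had been 2-fold lower at 2 h (rebound). Of the genes lower at 4 h, 15 had been 2-fold higher at 2 h (decay), 106 had differed by less than 2-fold (late fall) and 25 had already been 2-fold lower (continued fall). A further 254 genes were 2-fold higher at 2 h and then stayed within 2-fold (early and held). The class names describe the direction of single-array values. Both steps use the 2 h array, with opposite sign, so an error on that array alone can make a gene look like decay or rebound. With the first step taken from the Akirin2 KO arrays, which share no array with the wild-type late difference, the classes held 147, 36, 0, 13, 121, 12 and 283 genes in the same order, and 132, 25, 0, 10, 101, 10 and 206 genes had the same class both ways.

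**Figure D1:**
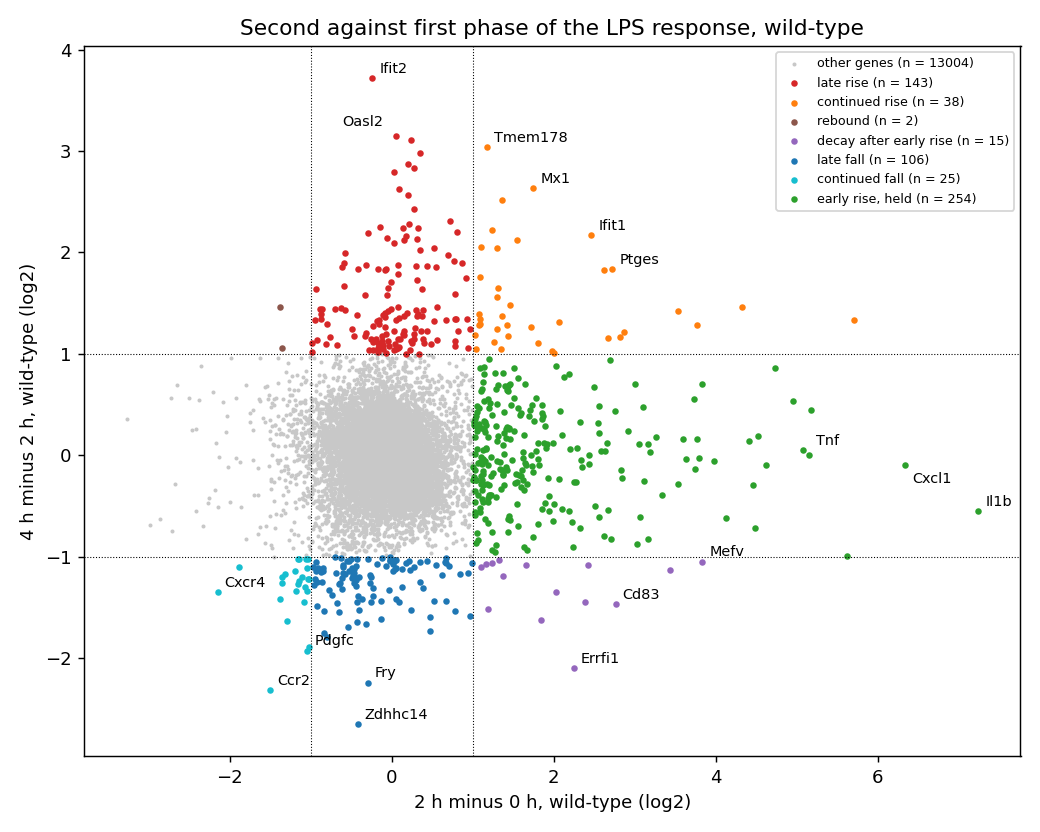
Each point is 1 of 13587 genes in wild-type macrophages, with the difference between 2 h and 0 h of LPS on the horizontal axis and the difference between 4 h and 2 h on the vertical axis (both log2), dotted lines at 2-fold and colours for the 7 classes. The 143 late-rise genes form a column above the middle, topped by Ifit2 at 3.72, while most of the genes with large early rises, such as Tnf and Cxcl1, lie near 0 on the vertical axis.

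The late rise was led by interferon-stimulated antiviral genes. Of 43 listed genes of the IFIT, OAS and related antiviral group 37 were measured, and all 37 had higher values at 4 h than at 2 h in wild-type cells. Their median difference was 1.73, against -0.00 over all genes, and 30 of them were at least 2-fold higher, against 1.35% of all genes. limma called 31 of the 37 higher and none lower over both genotypes, against 1.56% and 1.11% of all genes. By 2 h 10 of the 37 had already been 2-fold higher, with a median first-step difference of 0.35. The list was drawn up with results of these arrays known, so its count describes it and is no independent evidence of its direction. Of the 15 genes with the highest differences in wild-type cells, 11 belonged to this list or to the list of guanylate-binding proteins and immunity-related GTPases.

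Ifit2, which encodes an RNA-associated antiviral protein with tetratricopeptide repeats, had log2 values of 4.36, 4.12 and 7.84 at 0, 2 and 4 h. Its level at 2 h was thus no higher than in unstimulated cells, and at 4 h it was 13.2-fold above 2 h. The KO difference was 2.68, and limma gave 3.20 ± 0.25 (SE, 2 genotypes, adjusted p = 0.00112). Oasl2, of the oligoadenylate synthetase-like family, showed the same course with 5.15, 5.21 and 8.36. It rose by 2.93 ± 0.17 in limma's fit (SE, adjusted p = 0.000625). Cmpk2, a mitochondrial nucleotide kinase, had 4.28, 4.53 and 7.64, a difference of 3.11, although a second probe set of the gene differed by -0.03. Usp18, the protease that removes ISG15 from proteins and damps interferon receptor signalling, had 3.47, 3.82 and 6.80. Its wild-type difference of 2.98 stood beside 2.43 in Akirin2 KO cells.

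Other late-rise genes were also within 2-fold of their unstimulated value at 2 h. The GTPase Ifi47 had 6.22, 6.43 and 9.30, and Ifit3 had 3.29, 3.56 and 6.39. Zbp1, a sensor of Z-form nucleic acid that can start necroptosis, had 4.35, 4.37 and 7.16. Phf11d had 6.18, 6.27 and 8.90, and the giant ubiquitin ligase gene Rnf213 had 7.47, 7.68 and 10.25. Herc6, which in the mouse encodes the ligase that attaches ISG15, had 4.61, 4.88 and 7.31, and Slfn1 of the schlafen family had 4.84, 5.57 and 7.88. All 7 passed limma's threshold, with adjusted p between 0.000951 for Zbp1 and 0.0109 for Herc6. Trim30d also rose (5.89, 6.10 and 8.38, adjusted p = 0.00225), while its second probe set differed by only 0.09. Members of the list with the smallest differences were Mndal (0.26) and Ifi204 (0.44), of the DNA-sensing Ifi200 family, and neither was called by limma. Ddx60, a helicase-like antiviral factor, was 1.39 higher at 4 h in wild-type cells, against a difference of 0.07 in KO cells, and did not pass (limma, adjusted p = 0.29).

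**Figure D2:**
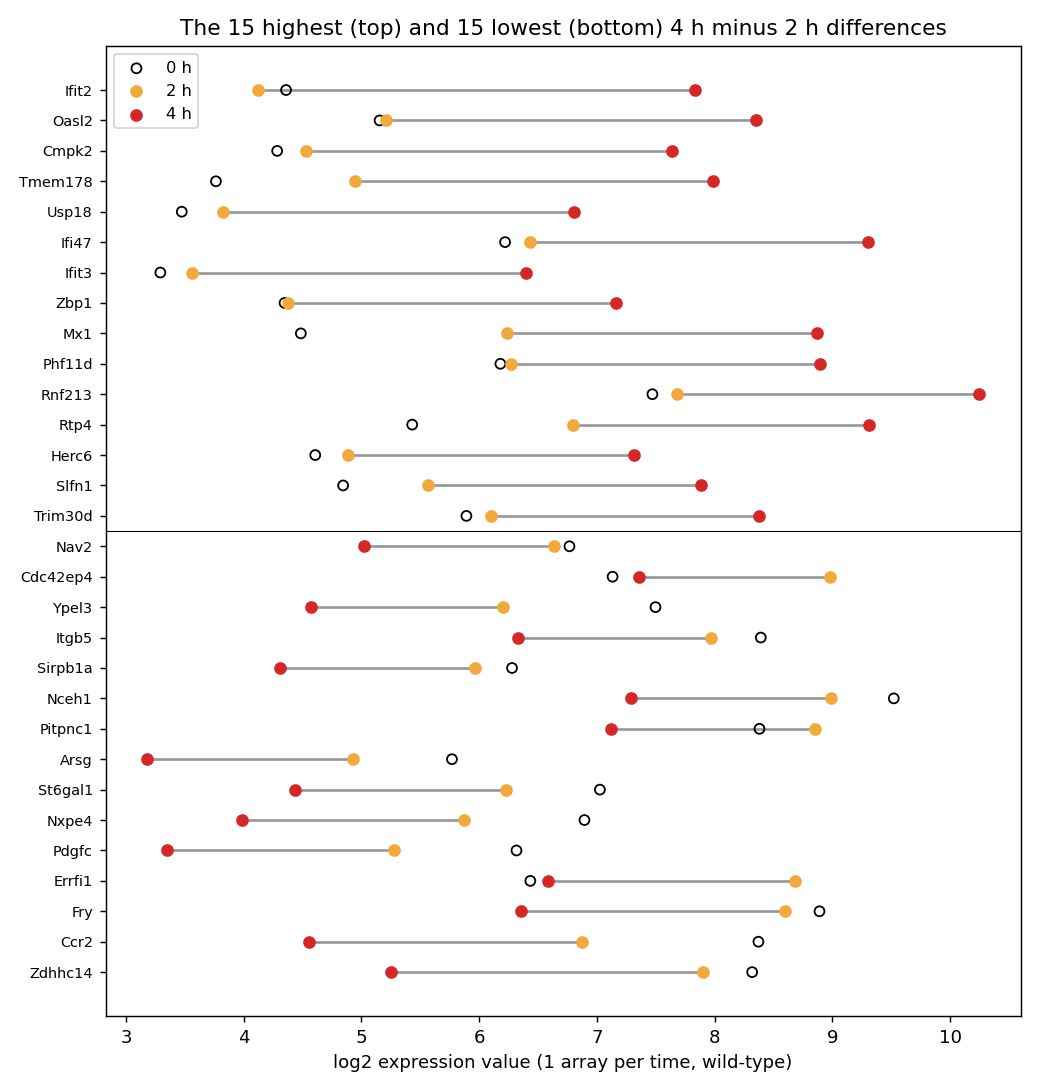
Wild-type log2 values at 0, 2 and 4 h of LPS (horizontal axis, 1 array per time) for the 15 genes with the highest and the 15 with the lowest difference between 4 h and 2 h, with a grey line joining the 2 h and 4 h values. For 12 of the upper 15 genes the 0 h and 2 h circles lie within 2-fold of each other, the exceptions being Tmem178, Mx1 and Rtp4.

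Guanylate-binding proteins and immunity-related GTPases, which attack vacuoles that hold bacteria or parasites, made up a second block. Of 15 listed genes 9 were measured, with a list median of 1.87 and only 1 member 2-fold higher by 2 h. At 4 h 7 were at least 2-fold higher in wild-type cells, against 1.35% of all genes, and limma called 7 higher, against 1.56%. Irgm1 had 4.01, 4.33 and 6.57 at 0, 2 and 4 h, and Gbp6 had 3.28, 4.10 and 6.29. Both rose (limma, adjusted p = 0.00489 and 0.0205). The members with the smallest differences, Iigp1 at 0.82 and Gbp2b at 0.85, did not pass. The GTPase genes are near-identical in places, so a probe set may read more than 1 of them.

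The MHC class I pathway showed smaller differences in the same direction. Of its 12 measured genes 11 had higher values at 4 h, and the median was 0.67. In wild-type cells 4 were 2-fold higher, against 1.35% of all genes, and limma called 5 higher and none lower, against 1.56% and 1.11%. Tap1 is counted here and in the antiviral list, so the lists overlap. Nlrc5, the transactivator of MHC class I genes, had 7.49, 7.20 and 9.39, and the peptide transporter subunit Tap1 had 5.48, 5.53 and 6.86. Both rose (limma, adjusted p = 0.00974 and 0.00694). The class I heavy chain H2-K1 was at 10.36 at 4 h and 10.38 at 2 h, and the partner subunit Tap2 differed by 0.05. Among 14 IRF and STAT transcription factors, which carry the interferon signal, 3 were called higher and none lower. Irf7 had 3.63, 3.92 and 5.36 and Stat2 had 3.28, 3.31 and 4.54, with 0.31 for the second probe set of Stat2. Both were within 2-fold of the unstimulated level at 2 h, but at low values where folds are understated, so a small early change could be missed. The third was Irf9, named here after its values were seen, with a wild-type difference of 0.82. Ifnb1 itself, which encodes interferon-beta and was looked up for the same reason, had 2.88, 3.24 and 3.04 at 0, 2 and 4 h. It differed by 0.36 between 2 and 0 h and by -0.19 between 4 and 2 h, so no 2-fold difference was seen. These values lay near the lowest on the arrays (2.26), where folds are understated, so they cannot show whether Ifnb1 was induced.

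Because these genes moved together, the promoter windows of the late-rise genes were read for the core of the interferon-stimulated response element, written GAAA, any 2 bases, GAAA and searched on both strands from 250 bases before to 50 bases after each RefSeq start (GRCm38.p6). Of 143 late-rise genes 105 had a window, and 23 of them (21.9%) held the motif, against 415 of 10888 kept genes with a window (3.81%) and 3.44% of all 32851 windows. The share was 14.3% for continued rise (4 of 28), 5.24% for early and held (11 of 210) and 3.66% for late fall (3 of 82). In the antiviral list 12 of 26 windows held it, and in the GTPase list 7 of 7 did. Outside both lists it was found in 11 of 83 late-rise windows (13.3%), among them those of Aoah, whose enzyme inactivates LPS by removing its acyl chains, and of the receptor gene Pilra, 2 genes named after the search. Of the 15 highest genes 11 had a window and 2 of these, Ifit3 and Trim30d, held the motif. A match is a run of letters and not a shown binding site, and the windows of Ifit2 and Oasl2 held none.

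The windows of 3 late-rise and 2 continued-rise genes are shown because they carry these letters at varying places, with the matches in capitals. A match on the opposite strand reads TTTC first. Ifit3 (chr19:34583279-34583578 on the plus strand), Ifit1 (chr19:34640639-34640938 on the plus strand), Trim30d (chr7:104507800-104508099 on the minus strand), Oas3 (chr5:120777610-120777909 on the minus strand) and Rsad2 (chr12:26456403-26456702 on the minus strand) are given 5′ to 3′ along the gene.
Ifit3: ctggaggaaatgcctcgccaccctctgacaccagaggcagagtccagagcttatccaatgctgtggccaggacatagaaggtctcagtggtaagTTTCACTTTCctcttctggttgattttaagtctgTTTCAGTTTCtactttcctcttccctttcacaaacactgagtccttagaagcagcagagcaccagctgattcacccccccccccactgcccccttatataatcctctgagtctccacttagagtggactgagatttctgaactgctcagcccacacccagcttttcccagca
Trim30d: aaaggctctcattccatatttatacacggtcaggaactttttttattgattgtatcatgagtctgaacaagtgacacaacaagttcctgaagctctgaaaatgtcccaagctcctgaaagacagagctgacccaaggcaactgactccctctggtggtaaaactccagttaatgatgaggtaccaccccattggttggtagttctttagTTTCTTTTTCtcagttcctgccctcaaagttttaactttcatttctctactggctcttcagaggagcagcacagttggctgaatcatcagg
Oas3: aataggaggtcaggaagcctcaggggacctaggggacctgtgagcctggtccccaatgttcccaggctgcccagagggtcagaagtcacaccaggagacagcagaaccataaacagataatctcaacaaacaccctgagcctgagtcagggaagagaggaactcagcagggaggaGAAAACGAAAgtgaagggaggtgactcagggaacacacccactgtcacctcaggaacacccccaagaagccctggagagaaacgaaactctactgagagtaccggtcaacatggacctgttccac
Rsad2: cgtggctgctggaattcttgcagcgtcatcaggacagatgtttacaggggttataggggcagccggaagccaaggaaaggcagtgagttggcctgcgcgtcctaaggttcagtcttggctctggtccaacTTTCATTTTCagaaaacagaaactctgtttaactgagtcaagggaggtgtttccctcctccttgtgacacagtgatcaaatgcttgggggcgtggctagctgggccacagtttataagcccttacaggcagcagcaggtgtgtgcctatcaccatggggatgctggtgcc
Ifit1: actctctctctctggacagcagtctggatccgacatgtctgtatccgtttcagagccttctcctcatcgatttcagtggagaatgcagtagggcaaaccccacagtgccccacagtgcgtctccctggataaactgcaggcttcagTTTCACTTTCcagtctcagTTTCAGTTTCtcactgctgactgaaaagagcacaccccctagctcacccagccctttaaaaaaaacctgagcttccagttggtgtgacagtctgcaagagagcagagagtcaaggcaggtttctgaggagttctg
Ifit3 and Ifit1 each held 2 matches, which began 156 and 122 bases before the start in Ifit3 and 104 and 85 bases before it in Ifit1. The single matches of Trim30d, Oas3 and Rsad2 began 41, 75 and 120 bases before the start. Oas3, a late-rise gene whose product makes the messenger that activates RNase L, had 2.96, 3.10 and 5.34 at 0, 2 and 4 h, and Rsad2, which encodes viperin, had 7.70, 8.95 and 11.17.

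The 38 genes of continued rise were already up at 2 h and went on. Their median wild-type difference between 4 h and 2 h was 1.34, 28 of them were also 2-fold higher at 4 h in Akirin2 KO cells, and limma called 33 higher. Tmem178, an endoplasmic reticulum membrane protein described in osteoclasts, had the largest difference, with 3.76, 4.95 and 7.98 at 0, 2 and 4 h. The wild-type difference of 3.04 compared with 1.66 in KO cells (limma 2.35 ± 0.30, SE, adjusted p = 0.00692). Of the 38 genes 9 belonged to the antiviral or GTPase lists. Mx1, a dynamin-like GTPase that blocks influenza viruses in the mouse, had 4.48, 6.23 and 8.87. Rtp4 had 5.43, 6.79 and 9.31, and Ifit1 had 6.14, 8.61 and 10.78. Xaf1 had 3.80, 5.36 and 7.48, with 0.28 for its second probe set.

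Others in this class belong to inflammation and metabolism. Lcn2, whose product starves bacteria of iron by binding siderophores, had 3.95, 5.26 and 7.30 and rose by 2.12 ± 0.21 (limma, SE, adjusted p = 0.00314). Ptges, the inducible prostaglandin E synthase, had 4.23, 6.95 and 8.79 (limma, adjusted p = 0.0106). Ak4, a mitochondrial adenylate kinase, had 4.06, 5.17 and 7.22, while another probe set of the gene differed by 0.07. The chemokine genes Ccl22 (2.44, 3.52 and 5.28), Ccl5 (5.71, 10.03 and 11.50) and Cxcl3 (2.94, 8.66 and 9.99) also rose. They call in T cells and monocytes or, for Cxcl3, neutrophils. Slc7a11, the cystine transporter used for glutathione synthesis, had 4.21, 7.98 and 9.27 (limma, adjusted p = 0.00496). It was the single gene called among 12 NRF2 antioxidant targets, whose median difference was 0.42.

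The classical early transcripts mostly stayed within 2-fold of their 2 h level, although 2-fold differences were more common among them than over all genes. Of the 307 genes that were 2-fold higher at 2 h, 254 stayed within 2-fold between 2 and 4 h (82.7%). A further 38 went up (12.4%) and 15 came down (4.89%), against 1.35% and 1.07% of all genes. The median late difference was 0.04, and 176 genes (57.3%) stayed within 0.5. At 4 h 246 were still at least 2-fold above 0 h, and 50 of the 254 were back within 2-fold of 0 h. Chosen instead by the KO arrays, 332 early genes (2.44%) had a median wild-type late difference of 0.06, with 36 further up (10.8%), 13 down (3.92%) and 238 still 2-fold above 0 h. Il1b, the interleukin-1 beta gene, had 3.59, 10.83 and 10.28 at 0, 2 and 4 h, and its difference of -0.55 did not pass (limma, adjusted p = 0.106). Tnf had 4.95, 10.10 and 10.10, and the neutrophil chemokine genes Cxcl1 (5.58, 11.92 and 11.82) and Cxcl2 (6.16, 11.24 and 11.29) were as flat. Ccl3 had 6.32, 11.28 and 11.81 and Ptgs2, the inducible cyclooxygenase, had 4.56, 9.74 and 10.19, and neither passed. Of the 8 genes of this class with the largest first step, limma called 2 in the second. Tnfsf9, the ligand gene of the co-stimulatory receptor CD137, fell by 1.08 ± 0.19 (SE, adjusted p = 0.0273), with wild-type values of 3.41, 9.03 and 8.04. Gpr84, a receptor for medium-chain fatty acids, rose by 0.95 ± 0.15 (SE, adjusted p = 0.0153), with 4.10, 8.84 and 9.70.

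Lists of early regulators and cytokines held more 2-fold differences by 2 h than after it. Of the NF-kB subunits and their feedback regulators 15 were measured, and all 15 had been 2-fold higher at 2 h. None differed 2-fold between 4 h and 2 h, against 2.42% of all genes, so none among 15 is near the share over all genes. The same holds for limma, which called none, against 1.56% of all genes higher and 1.11% lower. At 4 h 13 of the 15 were lower, with a median of -0.23. Bcl3 (5.16, 7.49 and 6.77) and Nfkbiz (5.61, 10.09 and 9.38), both atypical IkB proteins, were the lowest of them, although another probe set of Nfkbiz differed by -1.49. Traf1 (3.59, 7.32 and 7.87) was the highest. Among 20 proinflammatory cytokines 11 had been 2-fold higher at 2 h. In the second step limma called 2 higher, Il18 (5.24, 5.53 and 6.79) and Il15 (4.42, 4.58 and 5.76), both of which act on NK and T cells, and 1 lower, Tnfsf9. Il18 and Il15 were also the 2 of 20 that were 2-fold higher at 4 h in wild-type cells, against 1.35% of all genes. Both had been within 2-fold of the 0 h value at 2 h.

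**Figure D3:**
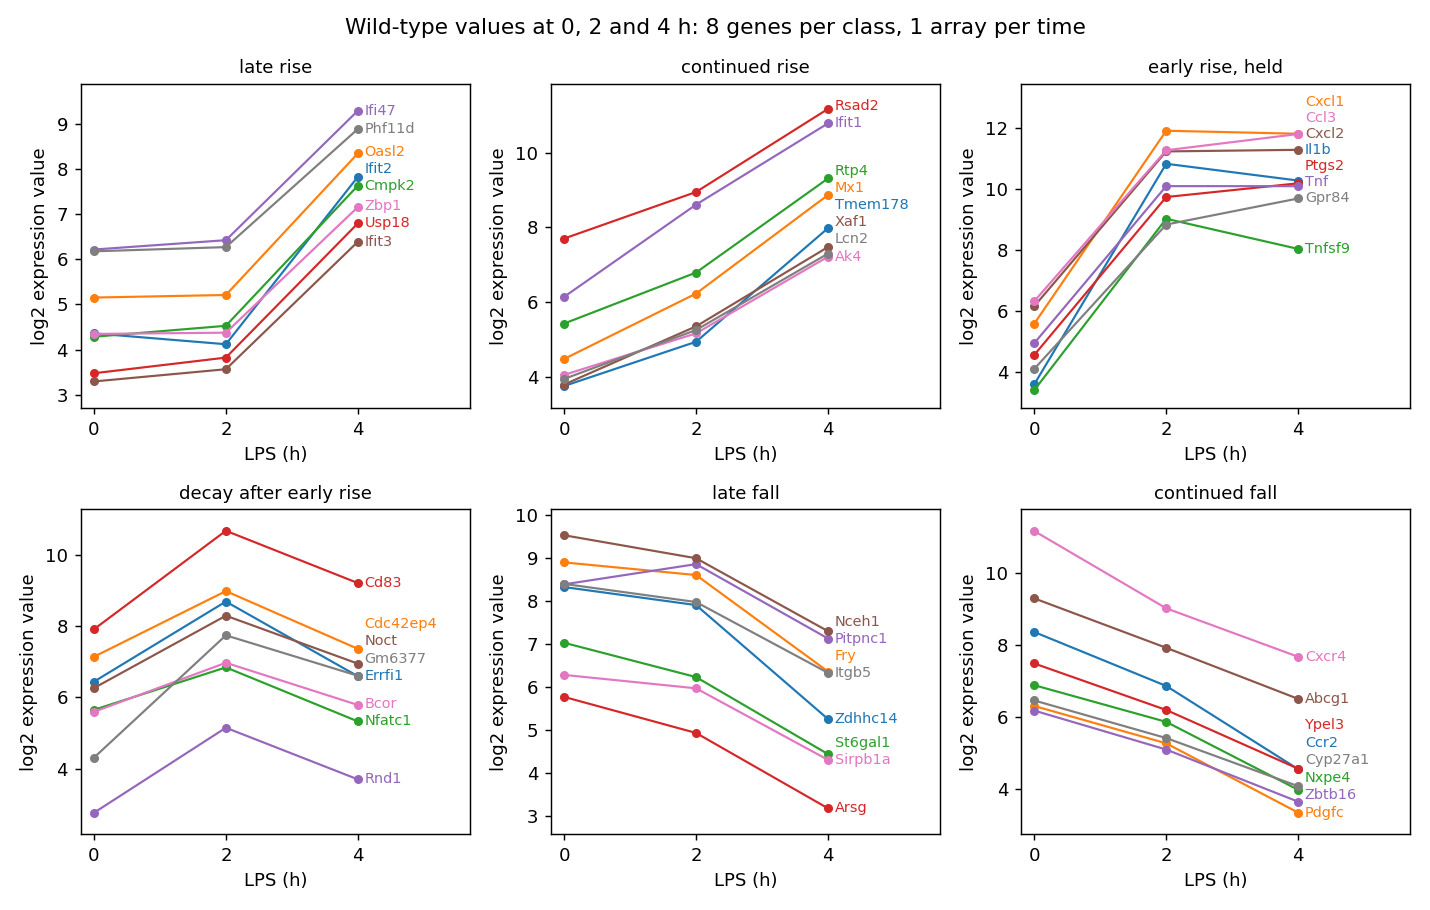
Wild-type log2 values (vertical axis) against hours of LPS (horizontal axis) for 8 genes of each of 6 classes, 1 array per time: those with the largest late difference, or for early rise, held those with the largest first step. Late-rise genes such as Oasl2 (5.15, 5.21 and 8.36) are flat up to 2 h, and decay genes such as Errfi1 (6.43, 8.68 and 6.59) peak at 2 h.

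Few early genes decayed, 4.89% of those chosen by the wild-type arrays and 3.92% of those chosen by the KO arrays. Both shares were above the 1.07% of all genes that were 2-fold lower at 4 h in wild-type cells. The 15 genes of this class are Errfi1, Cdc42ep4, Nfatc1, Cd83, Rnd1, Noct, Bcor, Gm6377, Mul1, Hspa1a, Gadd45a, Trem1, Atp2b4, Mefv and Jdp2, of which Jdp2 and others outside the 8 largest are listed to complete the class. At 4 h 11 of them were back within 2-fold of their unstimulated value, and limma called 8 lower. Errfi1, a feedback inhibitor of the EGF receptor family, had 6.43, 8.68 and 6.59, so it returned to within 0.15 of its 0 h value. It fell by 1.78 ± 0.18 (limma, SE, adjusted p = 0.00338), with a KO difference of -1.46, and its other probe set differed by -0.25. Cdc42ep4, an effector of the cytoskeletal GTPase CDC42, had 7.13, 8.98 and 7.36, and both its probe sets were lower at 4 h (-1.62 and -1.44). Nfatc1, the calcineurin-dependent transcription factor, had 5.65, 6.84 and 5.32, with another probe set at 0.04. Cd83, a surface marker of activated antigen-presenting cells, had 7.90, 10.67 and 9.20 and fell by 1.43 ± 0.15 (limma, SE, adjusted p = 0.00341). It remained 2-fold above 0 h. Noct, which encodes nocturnin, had 6.26, 8.29 and 6.94 and also fell (limma, adjusted p = 0.00906). The transcriptional corepressor gene Bcor differed by -1.19 in wild-type cells and 0.00 in KO cells, and the small GTPase gene Rnd1 by -1.45 and -0.45, and neither passed.

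The promoter window of Errfi1 (chr4:150854820-150855119 on the plus strand, RefSeq, GRCm38.p6) is shown because it was the only one of 12 decay windows with the full cyclic AMP response element TGACGTCA, in capitals, 51 bases before the start. The motif is its own reverse complement and was found in 3.31% of kept genes' windows.
Errfi1: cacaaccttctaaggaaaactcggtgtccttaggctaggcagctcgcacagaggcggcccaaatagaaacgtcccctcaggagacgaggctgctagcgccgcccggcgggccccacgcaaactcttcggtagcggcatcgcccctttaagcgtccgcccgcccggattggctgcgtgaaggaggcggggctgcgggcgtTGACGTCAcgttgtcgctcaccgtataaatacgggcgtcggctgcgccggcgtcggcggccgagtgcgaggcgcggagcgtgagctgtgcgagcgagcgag
The AP-1 letters TGANTCA were in 6 of 28 continued-rise windows (21.4%), 14 of 82 late-fall windows (17.1%), 12.9% of the early and held, 11.8% of the continued-fall and 7.62% of the late-rise windows and in none of the 12 decay windows, against 6.96% over all kept genes. The NF-kB letters, GGGA, any 2 bases, TTCC, were in 3 of 28 continued-rise windows (10.7%), 4.76% of late-rise, 3.81% of early and held and none of the 82 late-fall windows, against 1.8% of kept genes.

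Of 24 immediate-early transcription factors measured, 4 were 2-fold higher and 4 lower at 2 h than at 0 h, against 2.26% and 2.19% of all genes. Between 4 h and 2 h none was 2-fold higher and 2 were lower, against 1.35% and 1.07% of all genes. Egr1, the zinc finger factor induced by MAP kinases, had 7.93, 8.70 and 7.17 and fell by 1.72 ± 0.18 (limma, SE, adjusted p = 0.00351). Egr3 (4.57, 4.69 and 3.57) was lower in wild-type cells but did not pass (adjusted p = 0.202 by limma). Jun and Atf3 were higher at 4 h than at 2 h by 0.52 and 0.77 and did not pass either. Of 9 MAP kinase phosphatase genes, which end MAP kinase signals, Dusp5 fell (3.48, 5.23 and 4.43, limma adjusted p = 0.0478). Dusp10 (5.31, 4.95 and 3.53) did not pass, and its second probe set differed by 0.20.

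Of the 146 genes lower at 4 h, 106 had not differed 2-fold at 2 h, which also holds for most of all genes. Another 25 had already been 2-fold lower at 2 h and 15 had been 2-fold higher, against 297 (2.19%) and 307 (2.26%) of 13587 genes. Differences of less than 2-fold by 2 h still count as late fall. Of these 106 late-fall genes 82 were at least 2-fold below the unstimulated array at 4 h, limma called 66 lower, and 29 were also 2-fold lower in Akirin2 KO cells. Zdhhc14, of the family that attaches palmitate to proteins, had 8.32, 7.90 and 5.25 in wild-type cells, 6.27-fold lower at 4 h. The difference was -2.65 in wild-type and -2.71 in KO cells (limma -2.68 ± 0.15, SE, adjusted p = 0.000625), and all 5 of its probe sets were lower, between -2.74 and -0.68. Fry, a large protein that organises the cytoskeleton at cell division, had 8.89, 8.60 and 6.36, but its second probe set differed by 0.24. St6gal1, a sialyltransferase, had 7.03, 6.23 and 4.44, and Nceh1, which hydrolyses cholesterol esters in macrophages, had 9.52, 8.99 and 7.29. Itgb5, the integrin beta 5 chain, had 8.39, 7.97 and 6.33, with 4 probe sets between -1.64 and -1.52. Sirpb1a (6.28, 5.97 and 4.30), Pitpnc1 (8.38, 8.85 and 7.12) and Nav2 (6.77, 6.64 and 5.02) fell as well, all with adjusted p under that of Itgb5 (0.0101) in limma's fit. The 9 probe sets of Pitpnc1 ran from -1.78 to 0.13. The lysosomal sulfatase gene Arsg had 5.77, 4.93 and 3.18, but without probe sets that may cross-hybridise its difference was 0.13.

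Genes already lower at 2 h were a smaller group. Of 123 genes (0.905%) that were 2-fold lower at 2 h in KO cells, 12 (9.76%) were 2-fold lower at 4 h than at 2 h in wild-type cells, against 1.07% of all genes. None was 2-fold higher, which is near the 1.35% of all genes. Among the 25 genes of continued fall, 19 were called lower by limma. Ccr2, the receptor that brings monocytes out of the marrow towards CCL2, had 8.37, 6.87 and 4.56, a difference of -2.32 in wild-type cells and -1.45 in KO cells (limma -1.88 ± 0.22, SE, adjusted p = 0.00591). Of its 3 probe sets above the floor the weakest differed by -0.06. Cxcr4, the CXCL12 receptor, had 11.18, 9.03 and 7.68 and fell (adjusted p = 0.0271 by limma). Pdgfc, a growth factor for mesenchymal cells, had 6.32, 5.28 and 3.35. Nxpe4 had 6.89, 5.87 and 3.99, Ypel3 had 7.50, 6.20 and 4.57, and Zbtb16 had 6.19, 5.11 and 3.65, and all 3 fell in limma's fit. Cyp27a1, also among the 8 largest of this class, had 6.47, 5.42 and 4.09 and did not pass (limma, adjusted p = 0.247). Its difference was -1.34 in wild-type and -0.32 in KO cells, and its other probe set differed by -0.10 in wild-type cells.

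Chemoattractant receptor and cholesterol genes held calls in both directions. Of 12 chemokine and chemoattractant receptors, with a median of -0.26 and 9 lower at 4 h, 3 fell, Ccr2, Cxcr4 and the complement receptor C3ar1, and 1 rose, the formyl peptide receptor Fpr2 (7.84, 10.54 and 11.49, limma adjusted p = 0.0135). C3ar1 was 1.21 lower, named as the third of that count. Of 11 cholesterol efflux genes and LXR targets, with a median of -0.36, 7 were lower and 4 higher, and 2 fell: the exporter gene Abcg1 (9.31, 7.93 and 6.51, with a second probe set at -0.06) and Abca9 (7.56, 6.95 and 5.85). In cholesterol synthesis 12 of 14 genes were higher at 4 h, with a median of 0.63, and limma called 4 higher. Lss, lanosterol synthase, had 4.45, 4.13 and 5.30, and Fdft1, squalene synthase, had 6.93, 7.09 and 8.01, and both rose (limma, adjusted p = 0.0433 and 0.0255). Dhcr7, the last enzyme of the pathway, was 0.41 lower and did not pass.

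In eicosanoid synthesis 4 of 10 measured genes passed, and 7 of the 10 were lower at 4 h in wild-type cells, with a list median of -0.48. limma called Ptges, of the prostaglandin branch, and Pla2g4a (4.57, 5.05 and 6.15), the phospholipase that releases arachidonic acid for both branches, higher. It called 2 genes of the leukotriene branch lower, the lipoxygenase Alox5 (5.39, 4.99 and 3.79) and Ltc4s, which differed by -0.67 in wild-type cells. The prostaglandin side as a whole did not go up. Besides Ptges it held Ptgs2 (0.45), Tbxas1 (-0.69), Ptges2 (-0.555) and Hpgds (-0.40), named to complete it, and none of these passed. Among 12 complement and Fc gamma receptor genes, the activating receptors Fcgr4 (8.31, 7.70 and 6.49) and Fcgr3 (9.27, 8.71 and 7.67) fell. The inhibitory receptor Fcgr2b (8.41, 8.56 and 9.42) and complement factor Cfb (3.21, 4.23 and 5.42) rose. All 4 passed limma's threshold, with adjusted p between 0.0109 and 0.0335. For arginine, a substrate shared by several enzymes, the transporter gene Slc7a2 (4.83, 7.65 and 8.82) rose and Arg1 (8.98, 8.14 and 6.99) fell, with adjusted p = 0.00591 and 0.00694 in limma's fit. Co-stimulatory genes likewise parted: Cd40 (6.58, 8.71 and 9.48) and the inhibitory ligand gene Cd274 (6.71, 7.49 and 9.08) rose, and Cd86 (5.44, 5.12 and 4.42) and Cd83 fell.

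Transcription factors tied to macrophage identity included 2 of 23 that fell, Pparg (6.37, 5.27 and 4.07), the lipid-sensing nuclear receptor, and Bcl6 (9.60, 10.45 and 9.28), a repressor of inflammatory genes. Their limma adjusted p was 0.0222 and 0.0211. The mannose receptor gene Mrc1 fell (8.53, 7.84 and 6.96) and the scavenger receptor gene Marco rose (6.75, 6.88 and 7.66). Rgs1, a brake on chemokine receptor signalling, had 8.14, 7.11 and 6.08 and fell. It was the 1 gene called among 8 RGS genes, of which 5 were lower and 3 higher at 4 h in wild-type cells. Their wild-type median of -0.52 was the lowest of the 37 lists, but in KO cells the median was -0.17. In lists meant as a steady background, of 24 ribosomal protein genes, 12 housekeeping genes and 31 proteasome subunits none differed 2-fold and none was called, with medians of -0.06, -0.06 and 0.20. Their small differences were one-sided, with 20 of 24 ribosomal and 9 of 12 housekeeping genes lower and 28 of 31 proteasome subunits higher at 4 h.

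**Figure D4:**
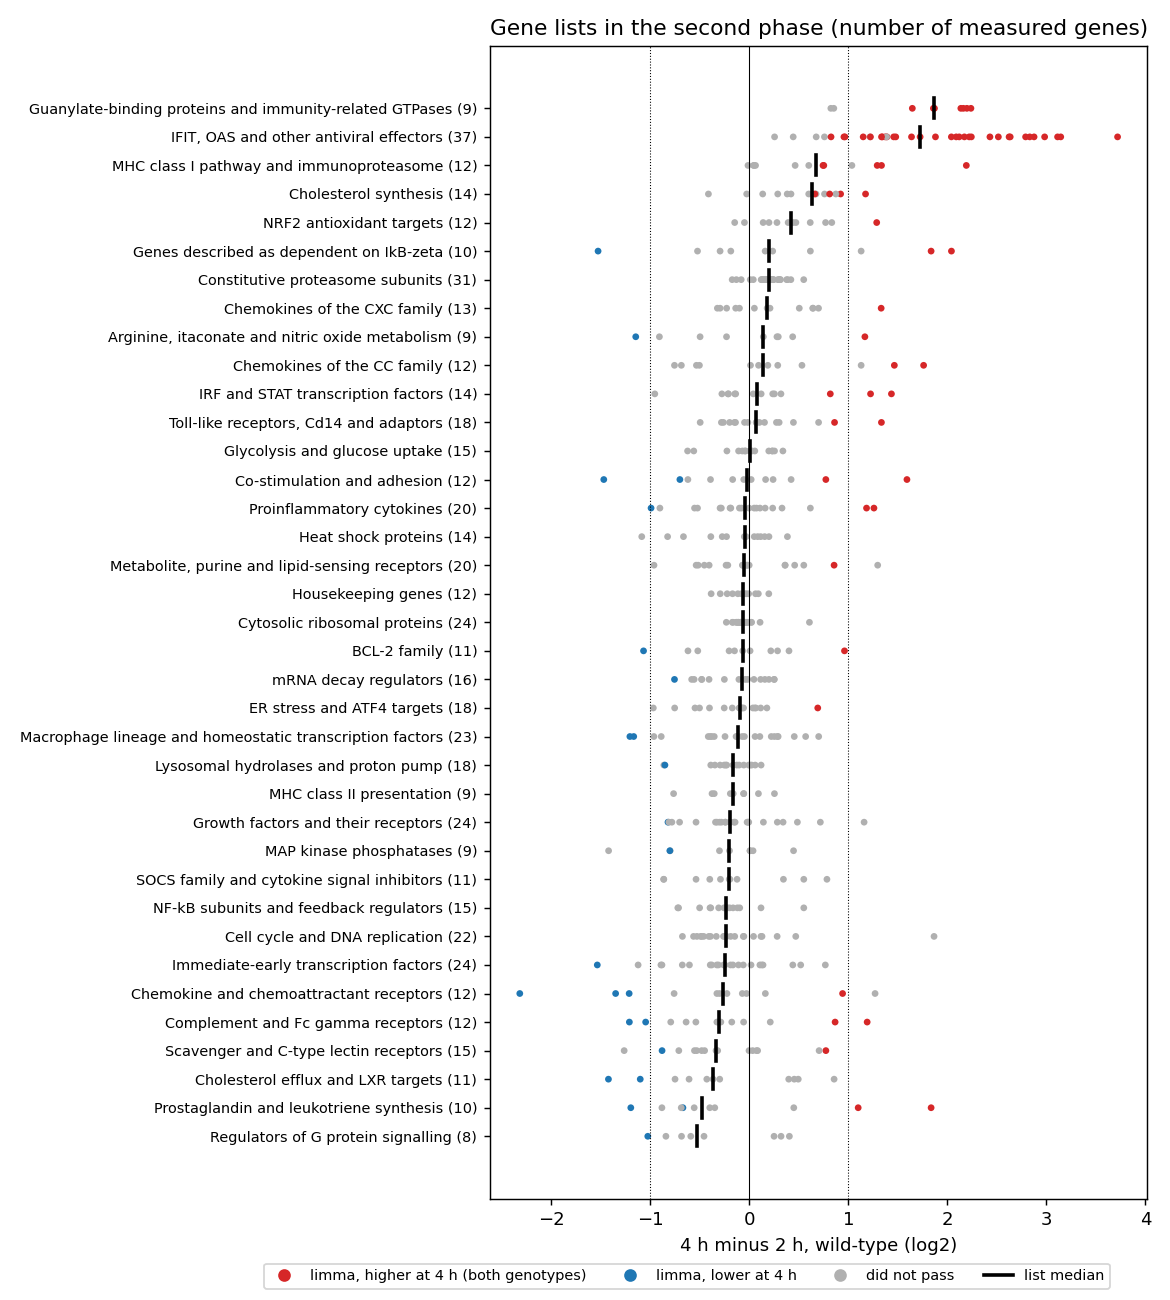
Wild-type difference between 4 h and 2 h (horizontal axis, log2) for the measured genes of 37 lists, ordered by list median (black bar), with red and blue points for genes that limma called higher or lower over both genotypes and dotted lines at 2-fold. The GTPase and antiviral lists stand at medians of 1.87 and 1.73, and the other 35 medians lie between -0.52 and 0.67.

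The same step in Akirin2 KO cells uses no array of the wild-type pair. There 137 genes (1.01%) were 2-fold higher and 69 (0.508%) 2-fold lower at 4 h than at 2 h. With each array centred on its median these KO counts were 112 and 96. Of the 183 genes higher in wild-type cells, 98 were 2-fold higher in KO cells, which is 53.6% of the wild-type and 71.5% of the KO list. Of the 146 lower genes 43 were shared, 29.5% of the wild-type and 62.3% of the KO list. Counting direction alone, 182 of the 183 were above 0 in KO cells, where 53.1% of all genes were, and 141 of the 146 were below 0, where 46.6% were. Across the 13587 genes the correlation of the 2 differences was 0.57, as a description over genes that are not independent.

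Wild-type differences were larger than KO differences for 153 of the 183 and 133 of the 146 genes, but these genes were picked by their wild-type values. Picked by the mean of both genotypes, 148 genes were 2-fold higher at 4 h. Of these 105 differed more in wild-type cells, with medians of 1.42 in wild-type and 1.23 in KO cells. On the lower side 81 genes were picked, 63 differed more in wild-type cells, and the medians were -1.31 and -1.12. A choice by the mean still leans to the genotype whose differences spread wider, so these counts cannot show a larger late step in wild-type cells. Differences of 2-fold were more frequent in wild-type (1.35% higher and 1.07% lower) than in KO cells (1.01% and 0.508%). Over all genes the wild-type difference was above the KO difference in 46.5%. With arrays centred the counts were 100 of 133 and 64 of 92, and the share over all genes was 61.1%. For the antiviral list the median was 1.73 in wild-type and 1.33 in KO cells. Rtp4 and Ifit1 differed less in wild-type cells (2.51 and 2.17) than in KO cells (2.93 and 2.54). Whether the late step differs between the genotypes was not tested, since 1 array per condition leaves no error for it. The genes farthest apart on this axis included Agrn, which encodes the basement membrane protein agrin (2.12 in wild-type, 0.59 in KO), and the matrix protease gene Mmp9 (1.99 and 0.63, with another probe set at -0.08 in wild-type). On the lower side the cytosolic DNA pathway gene Sting1 differed by -1.33 in wild-type and -0.00 in KO cells. Clec10a, a lectin of macrophages named from its list and not among the farthest apart, differed by -1.26 in wild-type and -0.26 in KO cells. The chemokine gene Ccl7 differed by 0.01 in wild-type and -1.36 in KO cells.

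**Figure D5:**
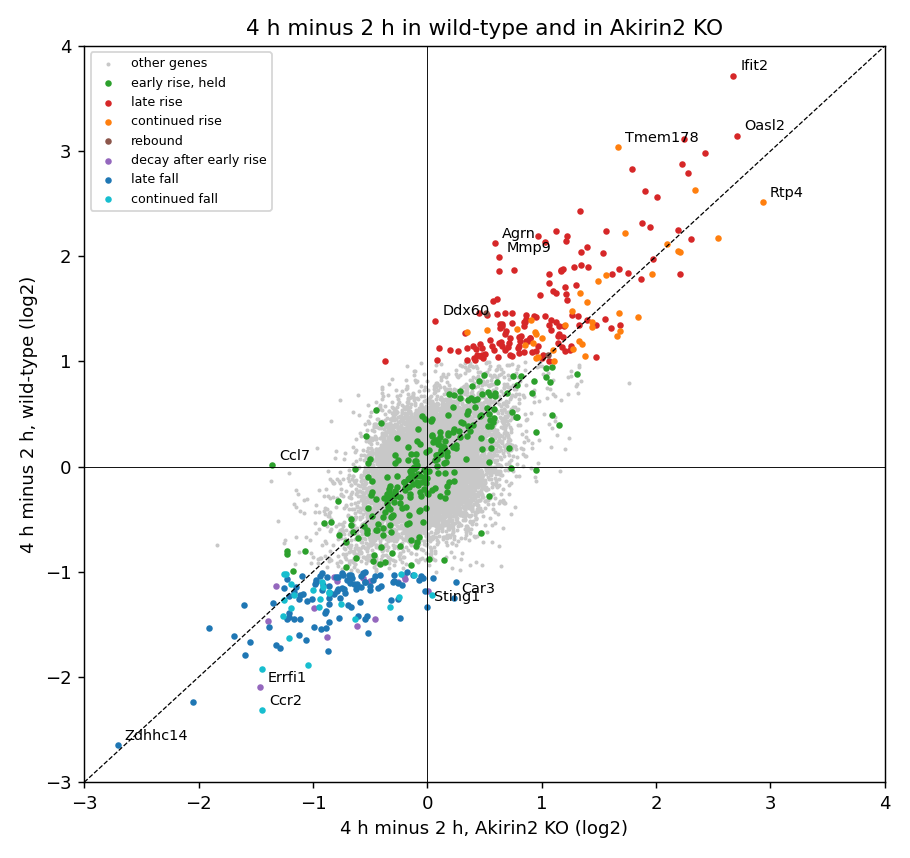
Difference between 4 h and 2 h of LPS in wild-type cells (vertical axis, log2) against the same difference in Akirin2 KO cells (horizontal axis, log2) for 13587 genes, with colours for the wild-type classes and a dashed line of equality. Of the 183 genes at or above 1 in wild-type cells 182 lie right of 0, and 153 lie above the dashed line.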

How the data were processed

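RNA from thioglycollate-elicited peritoneal macrophages was hybridised to Affymetrix mouse arrays after NuGEN Ovation labelling, per the labels' protocols. The deposited values are on the log2 scale, made by the authors with RMA (background correction, quantile normalization and probe summary), per the submitters' processing notes. The RMA version used is not given in the sources used here, nor is the probe definition. They ran between 2.26 and 14.18 for 45101 probe sets on 6 arrays, so low signals are compressed and folds near the bottom are understated. The platform annotation gave 34958 probe sets 1 symbol, 932 several and 9211 none, and 34754 were matched to RefSeq GRCm38.p6 by gene number. The median differed by at most 0.05 between arrays. Sequencing depth does not apply, and the number of arrays limits the precision.

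Groups follow the genotype and LPS time in the labels. limma 3.58.1 in R 4.3.3 fitted time and genotype to all 6 arrays with lmFit and eBayes (residual degrees of freedom 2, prior 6.35), with Benjamini-Hochberg adjustment. The fit was tested on simulated data. The text names the 15 highest and 15 lowest wild-type differences, the 8 largest of each class (the 8 largest first steps for early and held), Akirin2, up to 4 extreme members of each list and the genes farthest apart between genotypes. Genes outside this rule are marked in the text, or complete a count or a marker or threshold list. Classes, members, the 37 function lists and 9 marker lists were chosen with earlier results of these data known. Alternatives were another floor, the mean of a gene's probe sets, no cross-hybridising probe sets, other scaling, other fold sizes, other limma settings and the first step from KO arrays. Sequences are RefSeq promoter windows.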

Additional observations from a re-analysis of the deposited data

Results flagged for a closer look

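Among the genes chosen by the naming rule that were 2-fold apart in wild-type cells, 3 had a KO difference of the opposite sign and at least 0.05 in size, in each case on 1 array a side. Car3, a carbonic anhydrase gene, differed by -1.25 in wild-type and 0.24 in KO cells between 4 h and 2 h. Cep164, a centriole gene, differed by -1.10 and 0.25. Lhx9, a homeobox gene, differed by 1.004 and -0.37. The difference between genotypes was not tested for any of them, and limma called none of the 3 over both genotypes.

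Probe sets without a single gene symbol took no part in the gene counts. Of 6130 above the floor, 36 (0.587%) were 2-fold higher and 27 (0.44%) were 2-fold lower at 4 h in wild-type cells, and 14 and 6 of these did the same in KO cells. Their transcripts are not named here.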

How the results depend on the processing

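No paired analysis was possible because each condition has 1 array and the labels give no replicate numbers. With 1 array a side the wild-type differences have no error, and the limma p-values borrow the KO arrays. In the main counts, a different floor, leaving out cross-hybridising probe sets and a second quantile normalization kept each count within 1.5 times its value, and so did every setting not named here. Taking the mean of a gene's probe sets gave 111 genes higher and 69 lower at 4 h in wild-type cells and 88 and 29 in KO cells, with 19 lower in both; late rise held 85 genes, continued rise 25, rebound 1, late fall 44 and continued fall 14, and limma called 100 lower. With arrays centred continued fall held 13 genes and limma called 123 higher. At 1.5-fold 602 genes were higher and 658 lower, and late rise, continued rise, rebound, decay, late fall, continued fall and early and held contained 396, 113, 93, 86, 408, 164 and 532. At 3-fold 60 were higher and 16 lower, and the same classes contained 56, 4, 0, 2, 14, 0 and 136. With the first step from KO arrays rebound held 0 and continued fall 12 genes. limma called 433 higher and 442 lower with trended, robust variances, 486 and 438 without the 0 h arrays, and 319 and 253 at an adjusted p under 0.1; 1766 genes had an unadjusted p under 0.05. Of the 363 calls, 361, 363 and 241 recurred with trended variances, without the 0 h arrays and with arrays centred, and 224 with the mean of probe sets.

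Few directions changed. The mean of probe sets gave -0.063 for Dusp8, 0.009 for Stat5b, -0.069 for Bak1, 0.077 for Psmd6, -0.085 for Ms4a1 and 0.04 for Cd28. Without cross-hybridising probe sets the differences were 0.126 for Arsg, -0.011 for Ighm, 0.393 for Ndn and 0.231 for Pde7a. The median of the eosinophil markers was 0.043 with no floor, and that of the B cell markers 0.152 with a floor at the 75th percentile. The cause was not tested beyond the probe sets each setting uses. These 10 genes are the changes of sign counted among 1398 single-gene values under the alternatives. Differences close to 0, such as those of Tnf (-0.0012) and H2-K1 (-0.012), are outside this count, since a small shift turns their sign. No scaling moved the median of all genes by more than 0.02.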

Other observations

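Cell survival, sensing and stress genes outside the groups above gave scattered calls in wild-type macrophages at 4 h against 2 h. In the BCL-2 family 11 genes were measured, of which limma called 1 lower and 1 higher. Bcl2l11, which encodes the cell death activator BIM, had 8.39, 9.05 and 7.99 at 0, 2 and 4 h and fell (limma, adjusted p = 0.00849), while Bid, another activator, rose with a wild-type difference of 0.96 (adjusted p = 0.0295). Of 18 Toll-like receptor, Cd14 and adaptor genes 2 rose and none fell. Tlr3, the receptor for double-stranded RNA, was at 7.04 at 4 h and 6.64 at 0 h, with a wild-type difference of 1.33 between 4 h and 2 h (limma, adjusted p = 0.0377, with 0.26 for its second probe set). Tlr1, a partner in lipopeptide sensing, had 6.52, 8.02 and 8.88 (limma, adjusted p = 0.0285).

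Asns, asparagine synthetase and a target of ATF4, was the single gene called among 18 ER stress and ATF4 genes, with a difference of 0.69 in wild-type and 1.23 in KO cells. Atp6v0d2, a proton pump subunit, fell (8.82, 8.38 and 7.53, limma adjusted p = 0.0229) and was the single call among 18 lysosomal genes. The heat shock genes Hspa1a (2.91, 4.57 and 3.49) and Hspa1b (6.23, 9.39 and 8.56) were highest at 2 h but did not pass, and limma called none of the 14 heat shock genes. Their probe sets may read both genes, which are nearly identical. Of 22 cell cycle and DNA replication genes none was called. Ccnd2, cyclin D2, had 3.78, 4.08 and 5.95 in wild-type cells, against a KO difference of 0.76 for its wild-type 1.87 (limma, adjusted p = 0.061).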
